A study of Mus musculus with 18 samples.

Results

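The genes that encode the oxidative phosphorylation system were followed in mouse hepatocytes from both sides of the liver lobule and in 3 feeding states. Members were chosen by gene symbol: nuclear genes for subunits of complexes I to IV and of ATP synthase (symbols that begin with Nduf, Sdh, Uqcr, Cox4 to Cox8 or Atp5), together with the protein-coding genes of mitochondrial DNA (mt-Nd, mt-Cytb, mt-Co and mt-Atp). The rule took 114 of the 28030 genes in the deposited table, 101 of them nuclear and 13 mitochondrial, after 7 genes with a pseudogene suffix in their symbol had been set aside. The annotation lists 4 members that the rule kept as processed pseudogenes: Ndufb4c, which was tested and shares all of its stretches of 31 bases with the complex I gene Ndufb4, and Cox6c2, Ndufa11b and Ndufs6b, which were not tested. It also takes assembly factors whose symbols share the prefix (8 for complex I and 4 for complex II), and these were kept apart from the structural subunits. In all, 104 members passed the filter on low counts and were tested, 91 nuclear and all 13 mitochondrial. The remaining 10 nuclear genes were Atp5g2, Cox4i2, Cox6a2, Cox6c2, Cox7b2, Cox8b, Cox8c, Ndufa11b, Ndufa4 and Ndufs6b.

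The animals were wild-type C57BL/6J male mice aged 12 weeks on normal chow. All had been trained for 3 days to a cycle of 16 h without food and 8 h with food. Hepatocytes from the pericentral (PC) or the periportal (PP) side of the lobule were collected with digitonin, a detergent that permeabilises the cells of the zone it is perfused into. Renewed access to food for 4 h and drinking water containing 20% sucrose are recorded for every group, fed and fasted alike. Fed mice, with a recorded fast of 0 h, were killed at clock hour 13. Mice fasted for 8 h were killed at clock hour 21, and mice fasted for 24 h at clock hour 13. The 8 h groups therefore differ from the others in the time of day as well as in fasting. Each of the 6 groups held 3 RNA sequencing libraries. The labels do not say whether the libraries of a group came from separate mice, so p-values measure the spread between these libraries, which may be technical.

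Oxidative phosphorylation passes electrons from NADH (complex I) and succinate (complex II) through complexes III and IV to oxygen, and ATP synthase uses the proton gradient that results. Complex II is encoded by nuclear genes alone, whereas the core of complexes I, III, IV and ATP synthase combines nuclear subunits with subunits encoded by mitochondrial DNA. The mitochondrial genes are transcribed as long polycistronic RNAs inside the organelle, while nuclear genes depend on factors such as NRF1, GABPA, YY1 and ESRRA and on the coactivator Ppargc1a. In the liver lobule, periportal hepatocytes receive the more oxygenated blood and are known for oxidative metabolism and gluconeogenesis, and pericentral hepatocytes for glycolysis, lipogenesis and glutamine synthesis.

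Some mitochondrial genes overlap, so reads from the shared bases cannot be given to 1 gene with certainty. The pairs mt-Atp8 and mt-Atp6, and mt-Nd4l and mt-Nd4, are shown because both come up among the zone results. Bases shared by both genes are in capitals, with 15 bases on each side, read from the GENCODE M21 transcripts. The upper stretch is chrMT:7912-7984 on the + strand, with an overlap of 43 bases, and the lower one is chrMT:10152-10188 on the + strand, with an overlap of 7 bases.
mt-Atp8 into mt-Atp6: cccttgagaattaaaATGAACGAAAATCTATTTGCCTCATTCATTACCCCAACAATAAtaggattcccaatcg
mt-Nd4l into mt-Nd4: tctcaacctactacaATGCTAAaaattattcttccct

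A RefSeq promoter (build GRCm38.p6) was matched for 78 of the 101 nuclear members, and 5 words known for regulators of respiration were searched on both strands from 250 bases before to 50 bases after the start. The core of the NRF1 palindrome, CGCATGCG, was present in 11 members, or 14.1%, against 2.07% of all 27025 genes. The YY1 word AAGATGGC was present in 10 members, or 12.8%, against 3.19% of all genes. The ERR word TCAAGGTCA, which ESRRA binds, was found in 2 members, or 2.56%, against 0.466%, the CREB word TGACGTCA in 4 members, or 5.13%, against 2.03%, and the ETS word CCGGAAGT in 5 members, or 6.41%, against 4.31%. The 250 bases before the start of 3 genes are shown, 5′ to 3′, with a matched word in capitals. They are those of Atp5g1, which had the smallest adjusted p for the zone difference among the subunits above 10 CPM and held none of the words, of its paralog Atp5g3, which held the ERR word on the opposite strand (TGACCTTGA), and of Ndufaf4, which fell with fasting in both zones and held the NRF1 core. Their positions are chr11:96075632-96075881 (− strand), chr2:73911327-73911576 (− strand) and chr4:24897833-24898082 (+ strand).
Atp5g1: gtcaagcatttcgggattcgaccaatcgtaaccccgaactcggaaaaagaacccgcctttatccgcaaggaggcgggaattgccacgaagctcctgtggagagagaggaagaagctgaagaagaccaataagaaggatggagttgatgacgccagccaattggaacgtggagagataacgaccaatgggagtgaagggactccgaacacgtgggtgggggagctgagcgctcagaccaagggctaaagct
Atp5g3: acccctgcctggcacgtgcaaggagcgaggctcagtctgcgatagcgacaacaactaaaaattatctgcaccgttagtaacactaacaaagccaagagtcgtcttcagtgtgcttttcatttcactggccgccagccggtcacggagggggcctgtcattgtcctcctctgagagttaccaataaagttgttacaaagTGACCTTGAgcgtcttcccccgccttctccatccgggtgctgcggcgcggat
Ndufaf4: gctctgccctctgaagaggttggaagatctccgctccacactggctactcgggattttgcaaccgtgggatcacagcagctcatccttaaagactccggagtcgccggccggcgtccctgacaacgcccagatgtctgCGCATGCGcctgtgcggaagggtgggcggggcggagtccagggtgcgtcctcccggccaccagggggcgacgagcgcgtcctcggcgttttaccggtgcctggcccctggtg

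Library totals ranged from 1.84e+07 to 2.64e+07 estimated counts. The zone labels were checked with 7 detected pericentral and 8 periportal marker genes, whose levels were summed in CPM, the counts scaled to a common library total with TMM factors. The pericentral sum was 9452 to 18573 CPM in PC libraries and 422 to 2049 in PP libraries. The periportal sum was 3914 to 11386 CPM in PC libraries and 9985 to 19588 in PP libraries, so this sum overlapped. PC 24 h replicate 2 stood apart from its group: Glul, the pericentral glutamine synthetase, was at 110.8 CPM there and at 928 and 707 in the other 2 libraries, and results that rest on it are also given without it. PP 8 h replicate 1 was below the other 2 libraries of its group in Sds (222 CPM against 629 and 710), Pck1 (2564 against 6060 and 5356), the hepatocyte enzyme Tat (964 against 4443 and 3009) and albumin (92964 against 146728 and 133220). Markers of other liver cells were low, with summed levels of 3.08 to 39.0 CPM for 6 sinusoidal endothelial genes, 0.372 to 17.97 for 6 Kupffer cell and leukocyte genes and 1.60 to 21.8 for 6 stellate cell genes. The 6 cholangiocyte genes summed to 59.3 to 128 CPM in PC and 118 to 263 in PP libraries, with Epcam at 0 in all 18. The 4 erythroid genes summed to 30.998 to 75.7 CPM, most of it from Alas2 (29.2 to 66.5). Of the globin genes, Hbb-bs was at 21.6 CPM in PP 24 h replicate 3 and at most 5.49 in any other library. Group means of the endothelial, Kupffer, stellate and cholangiocyte sums were higher in PP than in PC in each state, and their part in the zone results was not tested. The same sums were higher after 24 h than in fed mice in PC. Group means (fed and 24 h) were 4.08 and 8.17 CPM for the endothelial, 1.44 and 3.54 for the Kupffer and 3.48 and 6.04 for the stellate genes. They were 67.8 and 114 for the cholangiocyte genes, where Tm4sf4 rose from 34.3 to 45.2 CPM in fed to 82.1 to 104.6 in 24 h libraries. The other cholangiocyte genes did not rise. In PC, Sox9 (5.25 to 6.11 CPM fed, 2.42 to 4.48 at 24 h) and Spp1 (7.95 to 10.8 and 5.39 to 6.25) were lower, and Krt7 overlapped.

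Transcripts of mitochondrial DNA were far more abundant than those of the nuclear members. On a scale of mean CPM per kilobase of transcript, all 13 mitochondrial genes lay above every nuclear member, at 1589 (mt-Nd6) to 17023 (mt-Co1), with a median of 6178. Among the 91 tested nuclear members the per-kilobase level ran from 0.293 to 653, with a median of 86.8. After mt-Co1, the catalytic core of complex IV, came mt-Co2 (10141 CPM per kilobase), mt-Co3 (9117), the complex III cytochrome mt-Cytb (8781) and mt-Atp6 (7004), followed by mt-Nd2 (6300), mt-Nd1 (6178), mt-Nd4 (5149), mt-Nd4l (3578), mt-Atp8 (3396), mt-Nd5 (2798) and mt-Nd3 (2268). The highest nuclear levels per kilobase were those of Atp5b, the catalytic beta subunit of ATP synthase (653), Cox6a1 (642), Cox4i1 (551), Atp5g3 (420) and Cox7c (311).

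The mitochondrial members took 6.93% to 9.80% of a library's estimated counts and the nuclear members 0.859% to 1.13%. The mitochondrial sum averaged 79133 ± 3531 CPM (SD, n = 3) in PC fed, 70844 ± 6207 in PC 8 h and 73253 ± 6800 in PC 24 h libraries. In the periportal groups it averaged 85410 ± 5052 CPM (fed), 94319 ± 13709 (8 h) and 96366 ± 9118 (24 h), each above its pericentral counterpart. The nuclear sum was 9194 ± 544, 9077 ± 1064 and 10448 ± 421 CPM in PC fed, 8 h and 24 h libraries and 10408 ± 558, 10851 ± 793 and 11321 ± 615 in PP. In these bulk samples, a change in the number of cells of a type and a change in RNA per cell cannot be told apart.

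The ratio of the mitochondrial to the nuclear sum within a library does not depend on scaling between libraries. As a log2 value it was 3.11 ± 0.02 (SD, n = 3) in PC fed, 2.97 ± 0.11 in PC 8 h and 2.81 ± 0.11 in PC 24 h libraries, or 8.61, 7.84 and 7.01 mitochondrial counts for each nuclear count. In PP it was 3.04 ± 0.14, 3.11 ± 0.15 and 3.09 ± 0.07, or 8.23, 8.68 and 8.50 to 1. After 24 h of fasting the log2 ratio differed by -0.30 from fed in pericentral cells, where the 3 fasted libraries (2.73 to 2.93) lay below all fed ones (3.08 to 3.13). In periportal cells the ratio differed by 0.05 between 24 h and fed, and the libraries overlapped. After 24 h the ratio was higher by 0.28 in PP than in PC (1.21-fold), without overlap of libraries, whereas fed libraries of the zones overlapped (a difference of -0.07). With single libraries left out, the 24 h zone difference of the ratio ranged from 0.24 to 0.34 and the pericentral change from -0.36 to -0.26. No p is given for these scores over the members.

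**Figure D1:**
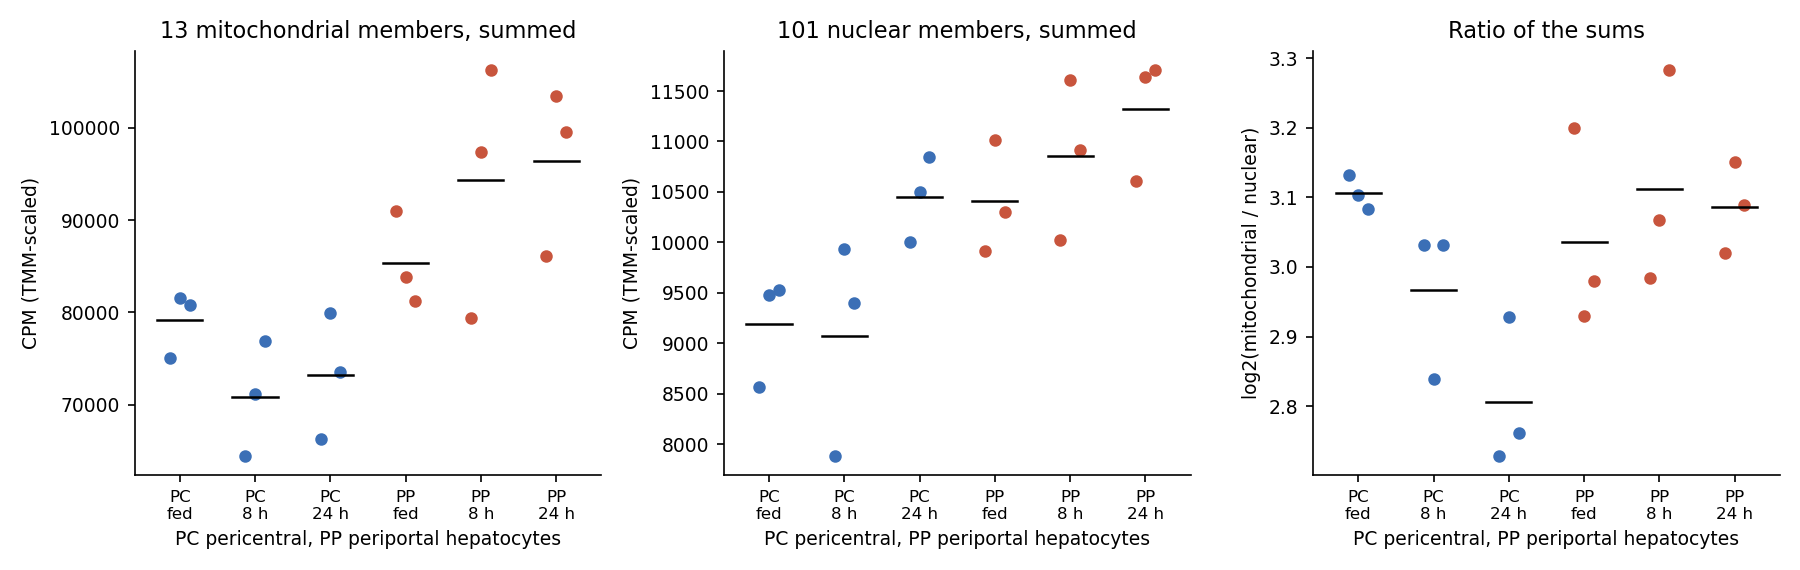
Summed mitochondrial members in CPM (left), summed nuclear members in CPM (middle) and the log2 ratio of the sums (right) for the 18 libraries; each point is a library, the bar is the mean of 3, blue is pericentral and red periportal. The pericentral ratio has group means of 3.11, 2.97 and 2.81 from fed to 24 h, while the periportal means lie between 3.04 and 3.11.

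The zones were then compared gene by gene, averaged over the feeding states. Of the nuclear members, 34 were higher and 1 was lower in periportal cells, out of 91 tested (edgeR quasi-likelihood test, Benjamini-Hochberg adjusted p under 0.05 over all genes). The background was 20.3% of all 12477 genes called, 10.3% higher and 9.96% lower. The median log2 fold change of the 91 was 0.17, against 0.00 for all genes, and 74 of the 91 lay above 0. Of the 13 mitochondrial members, 10 were higher and 0 were lower, with a median of 0.31 and all 13 above 0. Without the pseudogene Ndufb4c the nuclear count was 33 higher of 90. The differences are small: apart from Cox7a1, the largest called log2 difference was 0.50, in Atp5g1.

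The nuclear count depends on the scaling between libraries. TMM factors were 0.998 to 1.10 in PC and 0.830 to 1.04 in PP libraries, and albumin (Alb), the most abundant secreted liver protein, stood at 40013 to 79343 CPM in PC against 92964 to 159501 in PP. With library totals and no TMM factors, the median of all genes in this comparison shifted to -0.15, the nuclear members had a median of 0.02 with 6 higher and 8 lower, and the mitochondrial members had a median of 0.16 with 5 higher. A change of scaling shifts all genes of a library alike. The position of the sets relative to the median of all genes therefore cannot test this dependence. With the 20 most abundant genes left out of the scaling, the nuclear count was 34 (33 higher, 1 lower) and the mitochondrial count 10. Without PC 24 h replicate 2 the counts were 29 (28 higher, 1 lower) and 10. As a share of raw counts, the nuclear members averaged 1.01% in the 9 PC and 1.03% in the 9 PP libraries, and the mitochondrial members 7.84% and 8.70%.

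Subunits of every complex were among those higher in periportal cells, and no assembly factor was. For complex II, which links the citric acid cycle to the chain, all 4 subunits were higher in PP: Sdhb, the iron-sulfur subunit, by 0.33 ± 0.08 log2 (SE, adjusted p = 0.0058), the membrane anchors Sdhd by 0.29 and Sdhc by 0.18, and the flavoprotein Sdha by 0.22 ± 0.07. In complex III, 5 of 8 were higher (median 0.25), among them the core proteins Uqcrc1 and Uqcrc2 (0.24), the Rieske protein Uqcrfs1 (0.27) and the hinge protein Uqcrh (0.32). ATP synthase had 8 of 16 higher (median 0.19), with Atp5a1 at 0.28 ± 0.06, Atp5b at 0.22 ± 0.06 and Atp5c1 at 0.24 from its catalytic head. Complex I had 14 of 37 (median 0.18), or 13 of 36 without Ndufb4c, including the core subunits Ndufv1, which binds NADH, at 0.25 ± 0.05, Ndufs1 at 0.24 ± 0.07, and Ndufv2 and Ndufs7 at 0.20. The core subunits Ndufs3 at 0.13 and Ndufs8 at 0.00 were not called. Complex IV had 3 of 14 called higher (median 0.15), namely Cox7a1, Cox7b (0.38) and Cox5a (0.19), while Cox4i1 stood at 0.09 ± 0.06 (adjusted p = 0.40). Of the 12 assembly factors, none was called higher and Ndufaf6 was lower by 0.37 ± 0.09 (adjusted p = 0.0059), with a median of -0.05. For the assembly factors 2 had an unadjusted p under 0.05 in the higher direction.

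**Figure D2:**
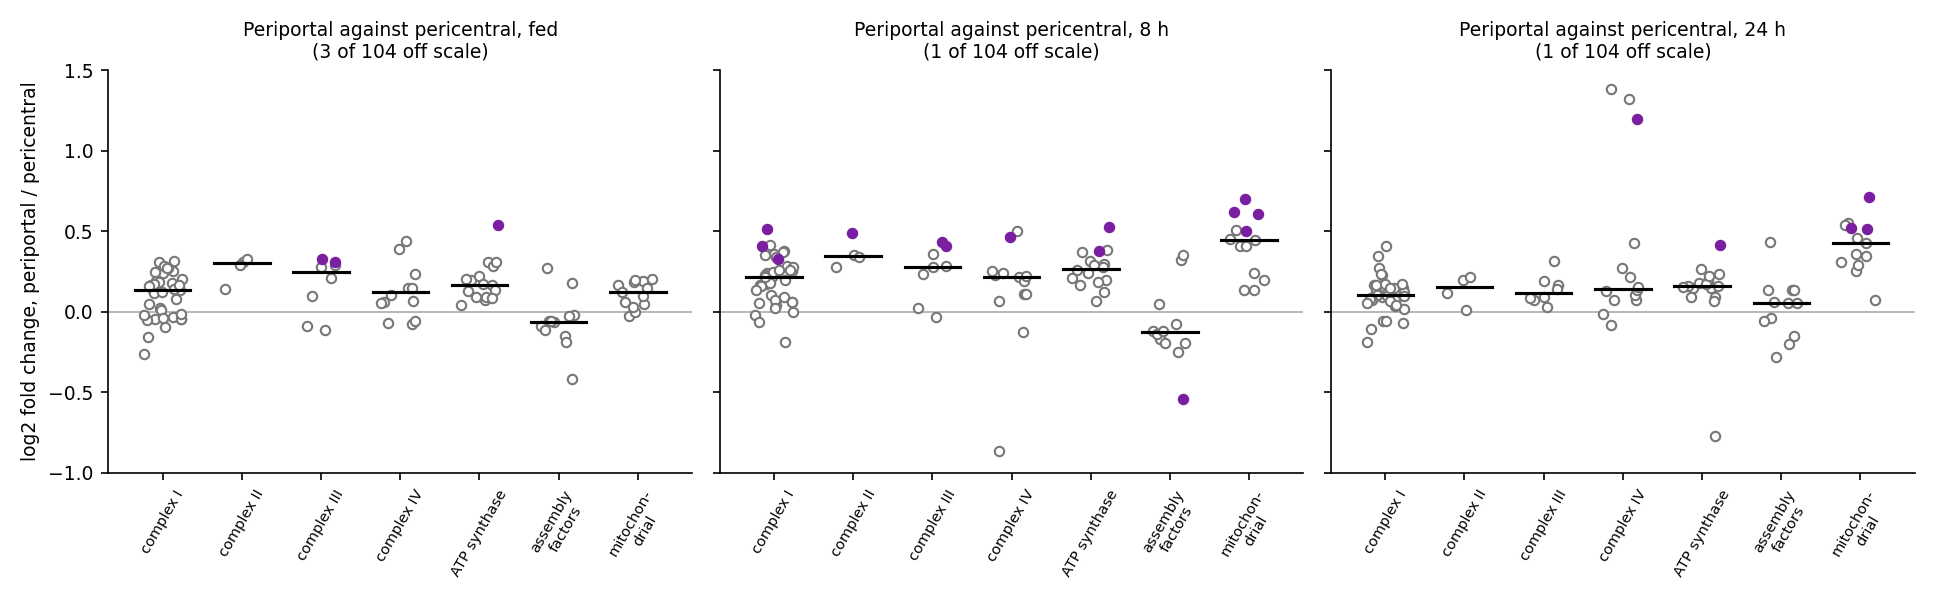
Log2 fold change of periportal over pericentral hepatocytes for the 104 tested members by role, in fed, 8 h and 24 h fasted mice; filled points have an adjusted p under 0.05, the black line is the median of a role, and the few low-count genes beyond the axis are counted in each panel's title. Structural subunits of every complex have medians above 0, with filled points for the mitochondrial genes only at 8 h and 24 h.

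Atp5g1 encodes a copy of subunit c, which forms the rotating ring of ATP synthase. In fed mice its level was 129, 149 and 164 CPM in PC and 202, 242 and 198 CPM in PP libraries. At 8 h the PC values were 134, 156 and 147 CPM and the PP values 191, 235 and 205. At 24 h they were 139, 156 and 164 CPM in PC and 194, 212 and 208 in PP. The zones did not overlap in any state, and the log2 difference was 0.54 ± 0.11 (fed, adjusted p = 0.0064), 0.53 (8 h, 0.0082), 0.42 (24 h, 0.0498) and 0.50 ± 0.07 averaged over states (3.7e-05). The averaged call was kept under every alternative that was run.

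Cox7a1 encodes the form of a small complex IV subunit known from heart and skeletal muscle, and its levels here were low. Fed PC libraries held 0.622, 0.276 and 0.506 CPM and fed PP libraries 1.36, 2.28 and 1.51. At 8 h the range was 0.425 to 0.491 CPM in PC and 1.47 to 2.30 in PP, and at 24 h it was 0.791 to 1.25 in PC and 1.96 to 3.20 in PP. No PC library reached a PP library of the same state, with a log2 difference of 1.67 ± 0.20 averaged over states (adjusted p = 9.4e-06). The marker sums of other cell types given above were also higher on average in PP libraries, and their part in this low-level gene was not tested. Cox7a2, the form known from liver, was at a mean of 71.4 CPM.

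Uqcrc1 was at 77.8, 82.9 and 82.7 CPM in fed PC and 98.5, 103 and 99.6 in fed PP libraries. At 8 h it was at 73.4, 91.7 and 77.0 CPM in PC and 104, 111 and 108 in PP. At 24 h the zones overlapped, at 87.7 to 93.7 CPM in PC and 93.0 to 104 in PP. Its averaged zone difference of 0.29 ± 0.05 (adjusted p = 0.00038) was lost only without TMM factors, at an adjusted p of 0.0745. The assembly factor Ndufaf6 ran the other way, with a mean of 10.3 CPM in fed PC and 7.69 in fed PP libraries, and its averaged call was kept under every alternative.

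Within single feeding states fewer members were called. In fed mice 4 nuclear members were higher in PP and 0 lower, or 4 of 91 against a background of 8.01% of all genes called (3.89% higher and 4.13% lower), so this count is near the background. The 4 were Cox7a1, Atp5g1, Uqcrc1 and Uqcrfs1. None of the mitochondrial members was called in fed mice, none had an unadjusted p under 0.05, and DESeq2 and limma-voom also called none, with a median log2 difference of 0.12. After 8 h of fasting, 10 nuclear members were higher and 1 (Ndufaf6) lower in PP, against 3.72% and 3.42% of all genes (7.14% in all), and 4 of 13 mitochondrial members were higher (median 0.45). The nuclear members included Ndufv1 (0.33), Atp5a1 (0.38), Uqcrh (0.43), Cox7b (0.47), Sdhb (0.49 ± 0.13) and Ndufa13 (0.52). Ndufb4c was also among the 10. The nuclear count at 8 h was 17 and the mitochondrial count 8 without PP 8 h replicate 1, which stood apart, with medians of 0.27 and 0.53. The nuclear count was 2 without PP 8 h replicate 2, 3 without PP 8 h replicate 3 and 4 without PC 8 h replicate 1 or 3.

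After 24 h, 2 nuclear members (Atp5g1 and Cox7a1) were higher in PP and 0 lower, against 1.7% and 2.47% of all genes (4.17% in all), and 3 mitochondrial members were higher (median 0.43). Libraries with the same replicate number deviated together between the zones at 24 h. In a fit of those libraries with the replicate number as a block, 0 nuclear members and 1 mitochondrial member were called (edgeR), and the medians were 0.12 and 0.43. Without PC 24 h replicate 2, 0 nuclear and 3 mitochondrial members were called. The median zone difference of the mitochondrial members was then 0.52.

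Among the mitochondrial genes, mt-Nd3, a core subunit of complex I, had the largest averaged zone difference. Its fed levels were 699, 721 and 701 CPM in PC and 836, 775 and 744 in PP. After 8 h they were 536, 571 and 719 CPM in PC and 755, 987 and 1036 in PP. After 24 h they were 546, 711 and 685 CPM in PC and 821, 1280 and 1083 in PP. The zones did not overlap in any state, but the gap was narrow in fed mice (0.15 ± 0.16, not called), with estimates at 8 h (0.61 ± 0.17, adjusted p = 0.0336) and 24 h (0.71 ± 0.17, adjusted p = 0.0188) that were called.

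mt-Cytb, the cytochrome of complex III, was at 8540, 9666 and 9102 CPM in fed PC and 10210, 9564 and 9964 in fed PP libraries, which overlapped. After 8 h it was at 6586, 8234 and 8644 CPM in PC and 9714, 12290 and 14046 in PP. After 24 h it was at 7687, 9573 and 8941 CPM in PC and 11217, 13119 and 13730 in PP. The fasted zones did not overlap, with log2 differences of 0.62 ± 0.15 at 8 h (adjusted p = 0.0183) and 0.54 ± 0.15 at 24 h (0.0557, not called). The other mitochondrial calls were mt-Atp8 (0.70 ± 0.17) and mt-Nd4l (0.50) at 8 h, and mt-Nd4 (0.51 ± 0.13) and mt-Co2 (0.52 ± 0.14) at 24 h.

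Averaged over states, the called mitochondrial members also included mt-Atp8 (0.42), mt-Atp6 (0.37), mt-Nd4 (0.34), mt-Nd4l (0.33), mt-Co1 (0.31), mt-Co2 (0.30), mt-Nd1 and mt-Co3 (0.29 each), beside mt-Nd3 (0.49 ± 0.10) and mt-Cytb (0.43 ± 0.09). Those not called were the complex I genes mt-Nd2 (0.14), mt-Nd5 (0.16) and mt-Nd6 (0.19), the last of which lies on the opposite strand of mitochondrial DNA from the other 12. For mt-Nd5 the zones overlapped in every state, as in fed mice with 4599, 5415 and 5022 CPM in PC and 6100, 4839 and 6350 in PP.

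**Figure D3:**
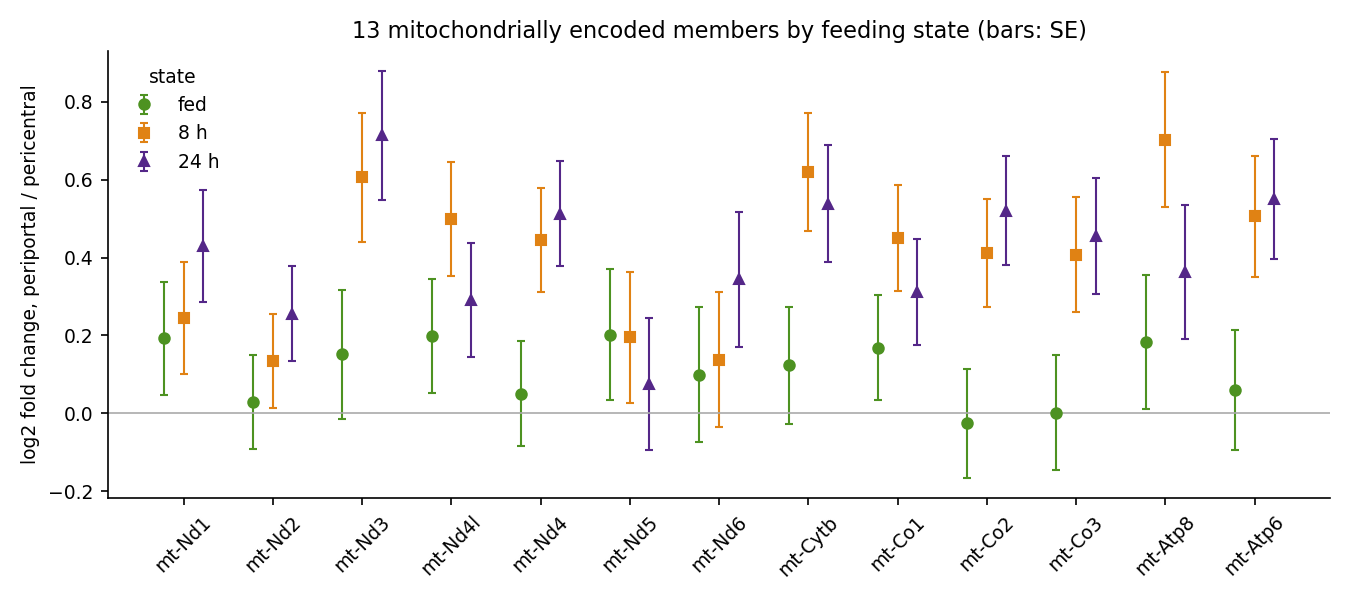
Log2 fold change of periportal over pericentral hepatocytes for the 13 mitochondrial genes in fed, 8 h and 24 h fasted mice, with bars of 1 SE. For mt-Nd3 the estimates are 0.15 (fed), 0.61 (8 h) and 0.71 (24 h), while for mt-Nd5 they are 0.20, 0.20 and 0.08.

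Whether fasting changed the gap between the zones was tested directly, as the periportal change minus the pericentral change. No member was called between 8 h and fed (0% of all genes called), between 24 h and fed (0.016% of all genes) or between 24 h and 8 h (0%), with edgeR, DESeq2 or limma-voom. For 24 h against fed, 5 mitochondrial members had an unadjusted p under 0.05, all in the direction of a wider gap, and no nuclear member did. They were mt-Co2 (0.55 ± 0.20, adjusted p = 0.514), mt-Nd3 (0.56 ± 0.23), mt-Atp6 (0.49), mt-Nd4 (0.46) and mt-Co3 (0.45). The median zone difference in response was 0.25 for the mitochondrial and 0.00 for the nuclear members. For 8 h against fed, mt-Cytb (0.50 ± 0.21), mt-Atp8 (0.52 ± 0.24), mt-Co2 (0.44 ± 0.20) and, of the nuclear members, the assembly factor Ndufaf4 (0.35 ± 0.16) had an unadjusted p under 0.05, each with an adjusted p of 0.909. For 24 h against 8 h, Uqcrc1 had such a p (-0.27).

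Fasting was compared with feeding within each zone, and in a zone both fasting times share the fed libraries. At 8 h no structural subunit of either genome was called in either zone. In PC, 0 nuclear members were higher and 2 lower against 7.27% and 6.57% of all genes (13.8% in all), and in PP likewise 0 and 2 against 7.56% and 6.85% (14.4% in all), so both counts were below the background. The 2 were the same genes in both zones, the assembly factors Ndufaf4 and Sdhaf1. For the mitochondrial members, edgeR, DESeq2 and limma-voom called 0 in both zones at 8 h and none had an unadjusted p under 0.05, with medians of -0.14 in PC and 0.18 in PP. Without PC 8 h replicate 1 the PC median was -0.09, and without PP 8 h replicate 1 or 3 the PP median was 0.32 or 0.11.

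Ndufaf4 helps to assemble complex I. In PC libraries it was at 43.3, 47.4 and 43.2 CPM in fed mice, 23.1, 30.3 and 24.6 after 8 h and 32.4, 27.2 and 29.6 after 24 h. In PP libraries it was at 42.1, 45.3 and 44.1 CPM in fed mice, 30.4, 38.0 and 29.0 after 8 h and 33.1, 33.8 and 31.03 after 24 h. No fasted library reached a fed one of its zone. It fell by 0.78 ± 0.11 on the log2 scale in PC (adjusted p = 0.000221) and by 0.43 ± 0.11 in PP at 8 h (0.0173), and by 0.59 ± 0.11 and 0.42 at 24 h (0.00158 and 0.015).

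Sdhaf1 helps to insert the iron-sulfur clusters of complex II. It was at 17.5, 16.4 and 19.1 CPM in fed PC libraries, 13.9, 11.5 and 12.8 after 8 h and 17.3, 12.8 and 15.8 after 24 h. In PP it was at 14.6, 17.97 and 16.5 CPM in fed mice, 12.5, 12.3 and 9.97 after 8 h and 16.2, 19.2 and 14.9 after 24 h. The 8 h libraries lay below the fed ones in both zones, by 0.47 ± 0.14 log2 in PC (adjusted p = 0.0291) and 0.50 ± 0.14 in PP (0.0229). From 8 h to 24 h it was higher by 0.53 in PP (0.0291), and by 24 h it differed from fed by -0.21 in PC and 0.04 in PP, neither called. The summed level of the 12 assembly factors averaged 153 ± 8.3 CPM (SD, n = 3) in PC fed, 125 ± 4.5 in PC 8 h and 126 ± 4.6 in PC 24 h libraries, and 146 ± 6.4, 121 ± 12.6 and 129 ± 12.2 in PP.

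After 24 h, most of the nuclear members called were in the higher direction. The endothelial, Kupffer and stellate sums given above for PC moved in the same direction, as did Tm4sf4 alone of the cholangiocyte genes. Their part in the fasting results was not tested. In PC, 8 nuclear members were higher and 2 lower, against 10.8% and 11.1% of all genes (21.8% in all), with a median of 0.17. In PP, 10 were higher and 1 lower, against 9.59% and 10% of all genes (19.6% in all), with a median of 0.14. As a share of raw counts, the nuclear members averaged 0.970% (fed) and 1.08% (24 h) in PC, and 1.05% and 1.04% in PP. Mean TMM factors were 1.06 and 1.03 in PC and 1.01 and 0.917 in PP. The higher nuclear level in PP at 24 h was thus present in scaled CPM but not in raw shares, and it depends on the scaling. In both zones the share of nuclear members called was below that of all genes, while 76 and 73 of the 91 had an estimate above 0. Of 14 complex IV members tested, 5 were called higher in PC and 4 in PP, with a median of 0.26 in each zone. They include low-level genes, Cox6b2 (mean 0.218 CPM) in both zones and Cox7a1 (mean 1.31 CPM) in PC. None of the 4 complex II subunits was called. Medians for ATP synthase were 0.19 and 0.16, for complex I 0.16 and 0.15, for complex III 0.18 and 0.17, for complex II 0.08 and 0.01 and for the assembly factors -0.22 and -0.18, in PC and PP. Of the called members, 4 were shared by the zones, or 40.0% of the 10 in PC and 33.3% of the 12 in PP (11 nuclear and mt-Atp6), against 56.3% and 62.8% over all genes called. Of the 4, Cox4i1, Cox7a2l and Cox6b2 rose and Ndufaf4 fell.

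**Figure D4:**
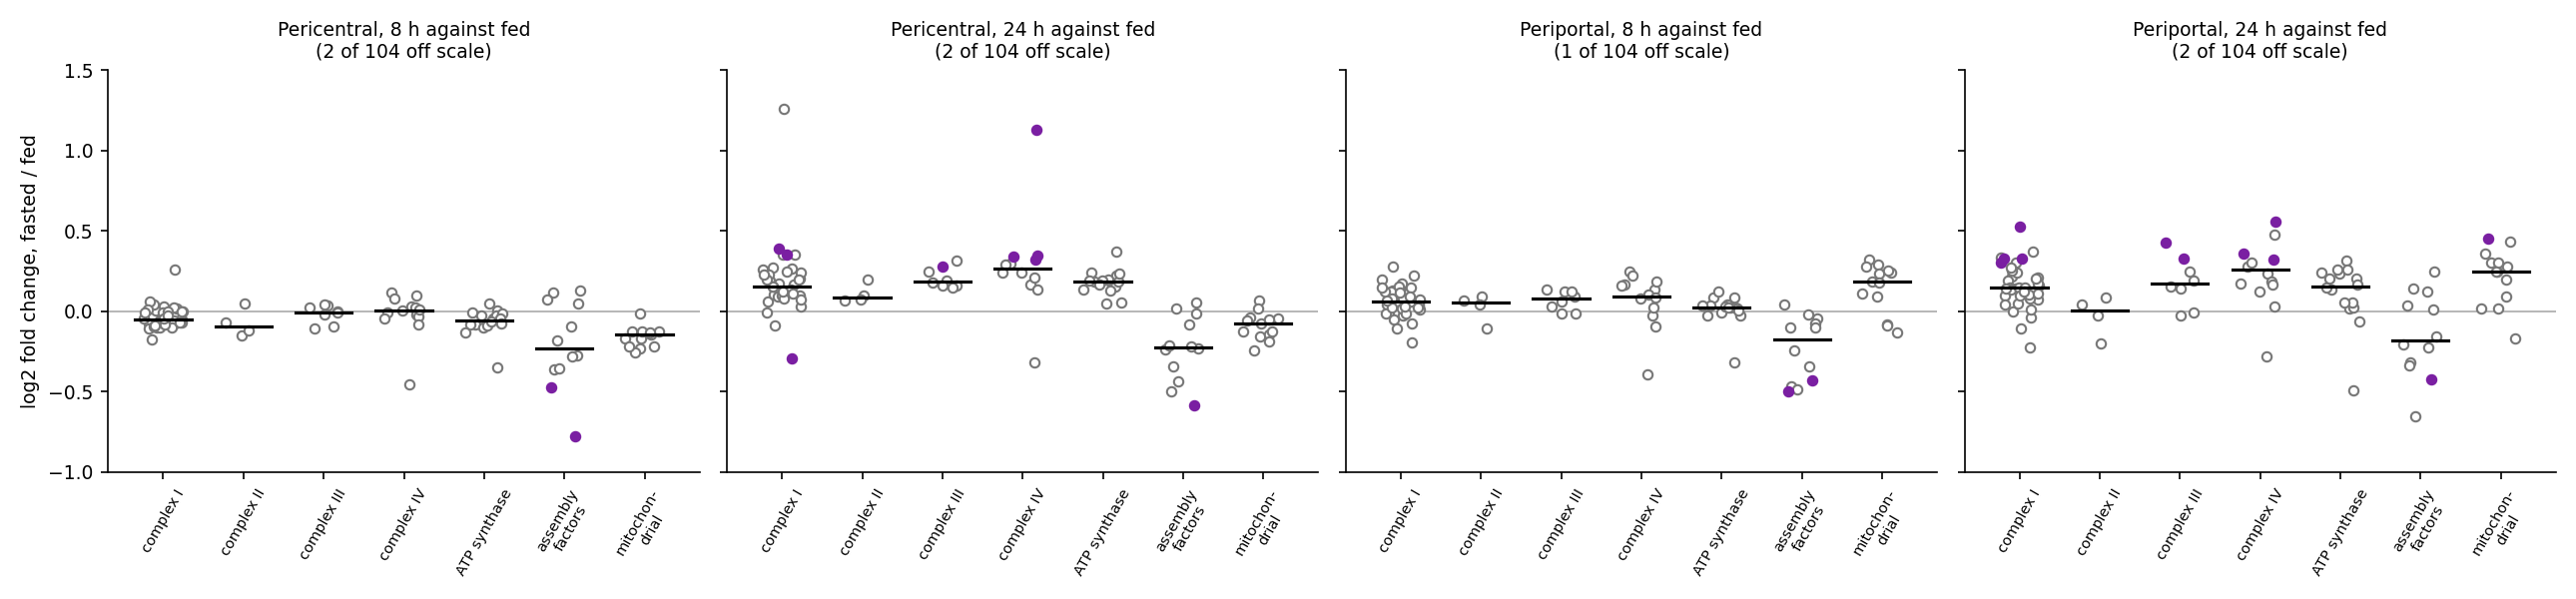
Log2 fold change against fed mice for the tested members by role, after 8 h and 24 h of fasting in pericentral and periportal hepatocytes; filled points have an adjusted p under 0.05 and the black line is the median of a role. At 24 h the complex IV medians are 0.26 in both zones and the assembly factor medians are -0.22 and -0.18.

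Cox7a2l is known for a role in joining complexes III and IV into supercomplexes, which were not measured here. Its RNA was at 57.6, 66.4 and 66.6 CPM in fed PC libraries, 62.0, 66.4 and 64.0 after 8 h and 73.1, 83.1 and 86.5 after 24 h. In PP it was at 61.9, 65.7 and 55.5 CPM in fed mice, 71.1, 71.9 and 65.1 after 8 h and 86.7, 96.1 and 87.1 after 24 h. Every 24 h library lay above all fed and 8 h libraries of its zone. The rise from fed to 24 h was 0.35 ± 0.09 log2 in PC (adjusted p = 0.0115) and 0.56 ± 0.09 in PP (0.000483), and the difference between the zones in this rise was not called (0.21 ± 0.13, adjusted p = 0.743). Cox4i1, the regulatory subunit that binds next to the catalytic core, rose by 0.32 ± 0.11 in both zones, with adjusted p-values of 0.0463 and 0.048.

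Other nuclear calls at 24 h were found in 1 zone, and the zones were not shown to differ in them. In PC they were Cox7c (0.34), Ndufs7 (0.35), Ndufa5 (0.39), Uqcrfs1 (0.28) and Cox7a1 (1.13 ± 0.35), with Ndufa8 lower by 0.29 ± 0.10. In PP they were Ndufa1 (0.53 ± 0.13, adjusted p = 0.0105), Uqcrq (0.43), Cox6c (0.36), Ndufa6, Ndufs6 and Uqcr11 (0.33 each) and Ndufv3 (0.30). Ndufa1, an accessory subunit of the membrane arm of complex I, was at 42.2, 48.6 and 47.9 CPM in fed PP libraries and 56.9, 67.2 and 75.5 after 24 h. Cox6b2, the form of Cox6b1 known from testis, had at most 1.04 CPM in any library. Its fitted changes of 3.21 ± 1.11 in PC and 2.46 ± 0.84 in PP rest on few counts. The PC count of 10 fell to 2 without PC fed replicate 1, 4 without PC fed replicate 2, 4, 3 and 3 without PC 24 h replicate 1, 2 and 3, and 5 to 6 without PC 8 h replicate 3, PP 8 h replicate 3 or PP 24 h replicate 3. The PP count of 11 fell to 1 without PP 24 h replicate 3, 3 without PP 24 h replicate 2, 2 without PP fed replicate 1, 5 without PP fed replicate 3, and 6 to 7 without PC fed replicate 2, PP 8 h replicate 2 or 3, or PC 24 h replicate 1 or 2.

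Few mitochondrial members were called against fed mice at 24 h. In PC, 0 of 13 were called against fed (edgeR, DESeq2 and limma-voom), none had an unadjusted p under 0.05, and 2 lay above 0 with a median of -0.08. That median was -0.14 without PC fed replicate 1, -0.05 without PC fed replicate 2, -0.03 without PC 24 h replicate 1 and -0.15 without PC 24 h replicate 2. In PP, 1 was called, mt-Atp6 (0.45 ± 0.15, adjusted p = 0.0493), 4 had an unadjusted p under 0.05, and the median was 0.24. mt-Atp6, the proton channel subunit of ATP synthase, was at 4589, 4593 and 4250 CPM in fed PP libraries and 5100, 7219 and 6054 after 24 h. This call was lost in limma-voom, and DESeq2 called 3.

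Between 24 h and 8 h of fasting, 5 nuclear members were higher and 1 lower in PC, against 5.2% and 4.51% of all genes (9.71% in all), and 3 higher and 1 lower in PP, against 3.22% and 4.24% (7.46% in all). Cox7a2l was called in both zones (0.34 and 0.38). In PC the others were Ndufs7 (0.35), the pseudogene Ndufb4c (0.36, its level not separable from that of Ndufb4), Ndufa5 (0.44) and Cox7a1 (1.16), with the assembly factor Ndufaf5 lower by 0.62. In PP they were Sdhaf1 and Cox6b2 higher and Ndufa8 lower by 0.37. Without PC 24 h replicate 2 the PC count was 0. The mitochondrial members had 0 calls in both zones with edgeR, DESeq2 and limma-voom, and 0 had an unadjusted p under 0.05.

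**Figure D5:**
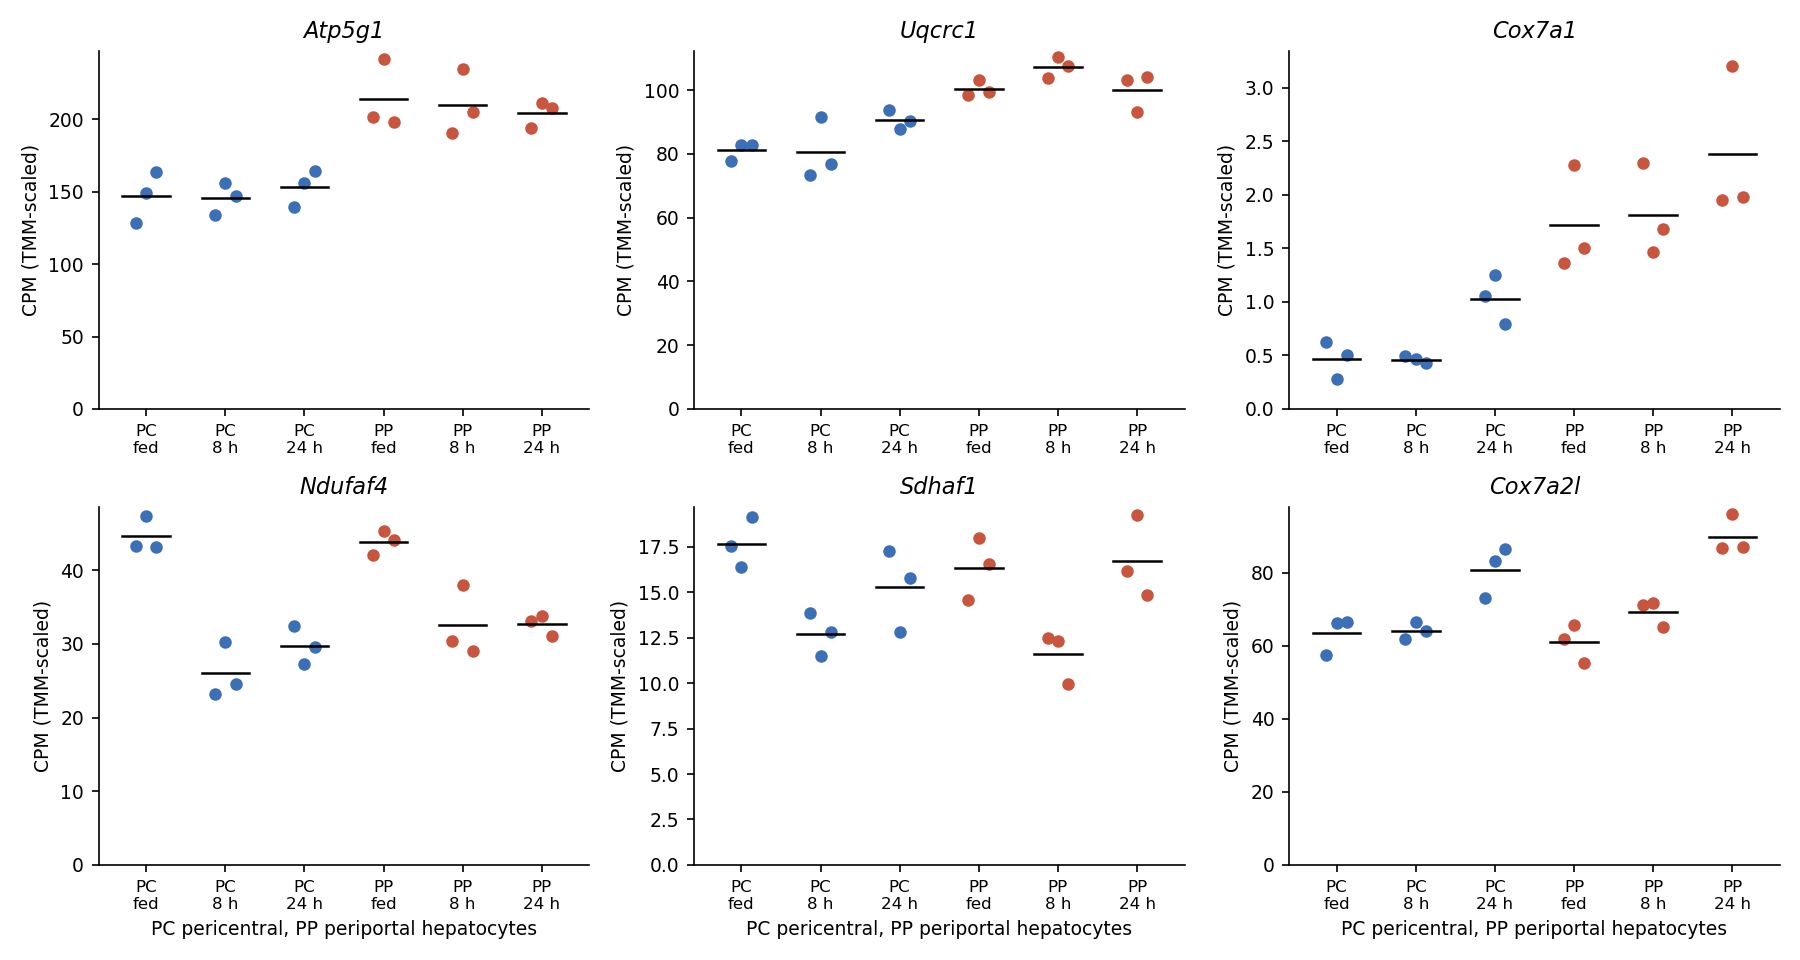
Levels in CPM of Atp5g1, Uqcrc1, Cox7a1, Ndufaf4, Sdhaf1 and Cox7a2l in each of the 18 libraries, by zone (blue pericentral, red periportal) and feeding state, on axes from 0 with the mean of 3 as a bar. Atp5g1 and Cox7a1 separate the zones in all states, and Ndufaf4 and Sdhaf1 are lower after 8 h in both.

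For Cox4, Cox6a, Cox6b, Cox7b and Cox8, the hepatocytes carried the isoforms known from liver and other tissues. The tissue-specific partners were at low or no level. Mean levels were 421 CPM for Cox4i1 and 0.0213 for Cox4i2, 366 for Cox6a1 and 0.0166 for Cox6a2, 114 for Cox6b1 and 0.218 for Cox6b2, 110 for Cox7b and 0 for Cox7b2, and 148 for Cox8a against 0.00436 for Cox8b and 0 for Cox8c. Each pair compares levels in CPM, not per kilobase. Ndufa4l2, which is known as a hypoxia target, had 0.399 CPM. Ndufa4, its partner known from most tissues, had less, at 0.134 CPM, so this pair did not follow the others. Ndufa4 is also among the subunits near 0 described below, for which misplaced counts were not tested. This pair was therefore not read as a choice of isoform.

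Other genes of the pathway were taken from a list of 79 genes: electron carriers, assembly factors outside the rule, carriers, the mitochondrial DNA and RNA machinery, and nuclear regulators, of which 77 were tested. Averaged over states, 9 were higher and 5 lower in PP, with a median of 0.02. That is 18.2% of the 77, against 20.3% of all genes, so the count is near the background. Ppargc1a was higher by 0.99 and Esrra, the nuclear receptor it coactivates, by 0.48. Cycs, cytochrome c itself, was higher by 0.44 and Cyc1, its partner in complex III, by 0.19. Sco2, a copper chaperone for complex IV, was higher by 0.98, Cox11 by 0.36 and the ADP/ATP carrier Slc25a5 by 0.24. The 5 lower genes were Ucp2 (-0.70), Cox18 (-0.30), Coq2, Ssbp1 and Timmdc1. The regulators Nrf1 and Tfam were not called in this comparison.

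Ppargc1a was at 6.15, 3.50 and 6.50 CPM in fed PC libraries, 8.97, 8.97 and 8.50 after 8 h and 18.4, 12.6 and 21.0 after 24 h. In PP it was at 10.4, 13.5 and 10.6 CPM in fed mice, 10.5, 18.7 and 16.4 after 8 h and 33.5, 41.7 and 35.1 after 24 h. From fed to 24 h it rose by 1.68 in each zone. In PC, 9 pathway genes were higher and 1 lower at 24 h, in PP 6 and 4, or 13.0% of the 77 in each zone against 21.8% and 19.6% of all genes. Polg2, the accessory subunit of the mitochondrial DNA polymerase, was higher in both (0.53 and 0.52), as was Etfdh, which feeds electrons from fatty acid oxidation to ubiquinone (0.69 and 0.44). Gpd2, the mitochondrial glycerol phosphate dehydrogenase, fell in both, by 1.42 and 0.82. At 8 h, 6 were higher and 6 lower in PC, and 6 and 4 in PP, or 15.6% and 13.0% against 13.8% and 14.4% of all genes. Sco2 rose by 2.05 and 1.999, the coenzyme Q kinase Coq8a by 1.04 and 1.15, the RNA polymerase of mitochondria Polrmt by 0.50 and 0.43, and Gabpa by 0.40 and 0.50. The lower genes included Coa3 in both zones and Gpd2 in PC. With single libraries left out, Coa3 ranged from -0.46 to -0.27 in PC and -0.56 to -0.45 in PP, and Gpd2 from -1.21 to -0.86 in PC.

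Likeness of other genes to the members was measured as the Pearson correlation of log2 CPM over the 6 group means, among 6646 genes with a mean of at least 10 CPM. For the mean of the nuclear members the closest were 2310061I04Rik (0.991), the urea cycle enzyme Asl (0.989), Cisd2 (0.989), Otud7b (0.979) and Agt (0.979). For the mitochondrial members they were Ptcd3, a protein of the mitochondrial ribosome (0.991), Fxyd1 (0.977), Slc35e1 (0.969), 1700017B05Rik (0.968) and Rab6a (0.967). With 6 points that share libraries, these values are descriptions.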

How the data were processed

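RNA of 18 hepatocyte libraries (6 groups of 3) was sequenced by the authors, per the labels with the NEBNext Ultra RNA kit. What the authors deposited is a single matrix of estimated counts; per the submitters' processing notes, kallisto 0.46.0 and the mm10 build were used. The annotation and the use of strand are not given in the sources used here. Between 67.5% and 70.5% of values in a library were whole, and all were rounded to whole numbers before testing. No column was left without a sample (0). Symbols were paired with 27566 of 28030 identifiers through GENCODE M21 names.

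The computation used the quasi-likelihood test of edgeR 4.0.16 (robust, TMM, filterByExpr) in R 4.3.3, as 1 fit of all 18 libraries with a coefficient for each group, 13 contrasts and Benjamini-Hochberg adjustment over 12477 genes. Calls were made below an adjusted p of 0.05. SE is that of the log2 fold change, and CPM use TMM factors. In simulated counts for the pericentral 24 h contrast (12283 genes), 44.9% of genes lowered by 1 log2 unit and 50% of those raised by 1 were called. At 0.5 the shares were 16.7% and 16.3%, and 0.02% of unchanged genes were called. Only 48 to 50 genes were changed at each size, drawn from all genes that passed the filter, low ones included. In the data 21.8% of genes were called in this contrast, so these shares do not give the power for the members. Alternatives used DESeq2 1.42.0, limma 3.58.1 (voom), other scalings and filters, a replicate block and leaving out each library.

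Named were the 13 mitochondrial genes, core subunits, isoform pairs, the 5 largest called members per direction in a contrast and up to 5 called pathway genes per direction. Of these, 1 gene is not reported here. Others named were chosen after their values were seen. Members and lists were chosen with earlier results of these data known. The labels do not say whether libraries with the same replicate number share a mouse. Only between the zones at 24 h did all same-numbered deviations correlate above the chosen limit of 0.1, at 0.106, 0.211 and 0.163. These values are low and do not establish pairing there or its absence elsewhere. The fits with library totals alone and with the 24 h libraries in a block were added after seeing the data. Genes sharing bases (such as Ndufb4c with Ndufb4, and mitochondrial genes with nuclear copies) and overlapping or antisense genes are uncertain in level.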

Additional observations from a re-analysis of the deposited data

How the results depend on the processing

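Of 144 calls of named genes, 45 were kept under every alternative run. Over 4032 such combinations 3308 were kept, 724 were lost and 0 changed direction. Depth limits the low members: Cox6b2 never passed 25 counts in a library.

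Counts of called nuclear members moved by over 1.5 times as follows, and the cause was not tested unless fewer samples or genes entered the fit. In fed mice the zone count of 4 was 2 with only the groups of the contrast, 9 with the replicate block, 9 with DESeq2 and 2 without TMM factors. At 8 h the zone count of 11 was 6 with no filter beyond 1 count, 1 with only the groups of the contrast, 24 with the block, 21 with DESeq2 and 2 without TMM factors. At 24 h the zone count of 2 was 0 with no filter, with only its own groups, without TMM factors and in the 24 h fit with a replicate block, and 1 with scaling without mitochondrial genes. Averaged over states, 35 became 14 without TMM factors. For PC 8 h against fed, 2 became 1 without TMM factors. For PC 24 h against fed, 10 became 3 with no filter, 2 with only its own groups, 25 with the block and 4 without TMM factors. For PC 24 h against 8 h, 6 became 0, 1, 21 and 0 under those settings and 12 with DESeq2. In PP, the 8 h count of 2 was 0 with only its own groups, the 24 h count of 11 was 4 with no filter, 4 with only its own groups, 25 with the block and 4 without TMM factors, and the 24 h against 8 h count of 4 was 0 with only its own groups and 1 without TMM factors.

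For the mitochondrial members, the 8 h zone count of 4 was 0 with only its own groups, 7 with the block, 9 with DESeq2 and 1 without TMM factors. The 24 h zone count of 3 was 5 with a filter at a mean of 1 CPM, 0 with only its own groups, 5 with the block, 7 with DESeq2, 1 without TMM factors and 1 in the 24 h fit with a replicate block. Averaged over states, 10 became 5 without TMM factors. The PP 24 h count of 1 became 3 with DESeq2 and 0 with no filter, only its own groups, scaling without mitochondrial genes, limma-voom or no TMM factors. Without TMM factors the median of all genes was -0.20 for the zones at 8 h, -0.17 at 24 h, -0.11 for PP 8 h and -0.14 for PP 24 h against fed, and the nuclear median turned to -0.05 for the zones at 24 h and -0.10 for PP 8 h.

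With 1 library left out, nuclear zone counts ranged from 2 to 6 (fed), 2 to 17 (8 h), 0 to 2 (24 h) and 24 to 40 (averaged), and the fasting counts from 1 to 2 (PC 8 h), 2 to 11 (PC 24 h), 0 to 6 (PC 24 h against 8 h), 0 to 3 (PP 8 h), 1 to 14 (PP 24 h) and 0 to 4 (PP 24 h against 8 h). Mitochondrial counts ranged from 0 to 8 (zones at 8 h), 0 to 5 (24 h), 9 to 10 (averaged) and 0 to 2 (PP 24 h), and were 0 elsewhere, as were all counts for zone differences in response. The fed zone count was 2 without PC fed replicate 1, PP fed replicate 2 or PP fed replicate 3. The PC 8 h count was 1 without PC fed replicate 1 or 3 or PC 8 h replicate 2 or 3, and the PP 8 h count was 0 without PP fed replicate 2 or PP 8 h replicate 3 and 1 without PP fed replicate 3 or PP 8 h replicate 1. The 8 h mitochondrial zone count was 8 without PP 8 h replicate 1, 2 without PC 8 h replicate 2 and 0 without PC 8 h replicate 1 or PP 8 h replicate 2 or 3. For the zones at 24 h, 15 of the 18 libraries moved the nuclear and 13 the mitochondrial count, and 15 moved the PP 24 h mitochondrial count.

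With 1 library left out, the median log2 fold change of the nuclear members ranged from 0.06 to 0.18 (zones, fed; lowest without PC fed replicate 1), 0.13 to 0.27 (8 h; lowest without PC 8 h replicate 1), 0.07 to 0.17 (24 h; lowest without PP 24 h replicate 2) and 0.14 to 0.19 (averaged), and from -0.10 to 0.05 (PC 8 h), 0.11 to 0.20 (PC 24 h; lowest without PC fed replicate 1), -0.01 to 0.11 (PP 8 h) and 0.10 to 0.20 (PP 24 h). The mitochondrial medians ranged from 0.07 to 0.16, 0.36 to 0.53, 0.34 to 0.54 and 0.28 to 0.34 for the zones (fed, 8 h, 24 h, averaged) and from 0.19 to 0.39 for the zone difference in response at 24 h (highest without PC fed replicate 1).

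For the log2 ratio, medians in place of sums gave 0.02 (zones at 8 h, from 0.14), -0.074 (PP 8 h against fed, from 0.08), -0.063 (PP 24 h against fed, from 0.05) and 0.039 and 0.27 for the zone difference in response at 8 h against fed and at 24 h against 8 h (from 0.21 and 0.14). They also gave -0.02 for the zones in fed mice (from -0.07), -0.26 for PC 24 h against 8 h (from -0.16) and 0.01 for PP 24 h against 8 h (from -0.03, a change of sign). With single libraries left out the ratio ranged from -0.15 to -0.02 (zones, fed), 0.06 to 0.21 (8 h), 0.09 to 0.14 (averaged), -0.17 to -0.07 (PC 8 h), -0.23 to -0.12 (PC 24 h against 8 h), -0.01 to 0.16 (PP 8 h), 0.00 to 0.13 (PP 24 h), -0.09 to 0.06 (PP 24 h against 8 h), and 0.13 to 0.30, 0.30 to 0.43 and 0.07 to 0.22 for the zone differences in response at 8 h against fed, 24 h against fed and 24 h against 8 h.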

Other observations

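Some subunits known to be made in most tissues were near 0 in every library. Cox5b, a structural subunit of complex IV, averaged 0.660 CPM, Ndufa9, an accessory subunit of complex I, 0.424, and Ndufa4, a subunit of complex IV, 0.134, while Atp5g2, another gene for subunit c, was at 0 in all 18 libraries. The 2 other genes for subunit c, Atp5g1 and Atp5g3, averaged 179 and 304 CPM. For Atp5g2, 37.5% of its stretches of 31 bases also occurred in Gm10175, which averaged 90.9 CPM. The deposited genes that shared most with the others were Gm11273 for Cox5b (15.8%, at 0 CPM), Mrpl35 for Ndufa9 (2.05%, at 12.6 CPM) and Gm14630 for Ndufa4 (0.760%, at 0 CPM). Whether counts of these genes were given to near-identical copies was not tested.

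Several mitochondrial genes share most of their stretches of 31 bases with other annotated genes: all of mt-Co2 (100%), 99.9% of mt-Co3, 99.5% of mt-Atp6, 98.9% of mt-Nd4l and 98.1% of mt-Nd3. The share was 63.9% for mt-Co1 and 62.8% for mt-Nd4. Of the deposited genes, the one that shared most averaged 0.381 CPM for mt-Co2 (Gm13341), 1.64 for mt-Co1 (Gm13340) and 0 for mt-Nd4l (Gm10222). For mt-Co3, mt-Nd3 and mt-Nd4 no sharing gene was among those deposited. Whether counts were given to such copies was not tested. All of Ndufb4c was shared with Ndufb4, which averaged 28.1 CPM.

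The ERR word was found in the promoter windows of Atp5g3 and Sdhd, both higher in periportal cells averaged over states. Among the 27 members called higher that had a promoter, the share with a word was 7.41% for ERR, NRF1, YY1 and ETS and 3.70% for CREB. Among the 47 other tested members with a promoter it was 0% for ERR, 17.0% for NRF1 and for YY1, 6.38% for ETS and 6.38% for CREB. These shares rest on at most 8 genes each, and no difference was tested.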
